A study of Homo sapiens with 26 samples.

Results

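The 10 drug efflux transporters described here belong to the ATP-binding cassette (ABC) family, namely ABCB1, ABCB4, ABCC1, ABCC2, ABCC3, ABCC4, ABCC5, ABCC10, ABCG2 and ABCA3. They were taken as every probe-set of the Affymetrix HG-U133 Plus 2.0 array that is annotated to 1 of these symbols alone, which gave 23 of 54613 probe-sets. A probe-set is the group of short probes whose signals are summarised to 1 value, and 1 further probe-set shared by ABCB4 and ABCB1 was kept apart. Expression was measured in 26 untreated malignant B-cell lines with 1 array per line, and no drug, transgene or other agent was applied before the RNA was harvested. The first group held 14 lines analysed as diffuse large B-cell lymphoma (DLBCL), including MC-116, an undifferentiated lymphoma line. The second held 12 lines analysed as multiple myeloma (MM), including AMO-1, a plasmacytoma line. The lines grew in different media, with RPMI and 10% foetal serum used for 8 DLBCL and 6 MM lines. The labels gave the response of the lines to cyclophosphamide, doxorubicin and vincristine as AUC0. This is the area between 0 and the positive stretch of a dose response curve built on growth rates, and it grows with resistance. They also classed each tested line as sensitive, intermediate or resistant by tertiles of AUC0 within its disease. No AUC0 or class was given for SU-DHL-4 and MC-116 with cyclophosphamide, or for NU-DHL-1 and SU-DHL-4 with vincristine. A line is the replicate throughout. An array reads the whole culture, so that fewer expressing cells and less RNA per cell cannot be told apart.

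ABC transporters are membrane proteins that use ATP to move lipids, peptides, conjugates and foreign compounds across membranes. ABCB1 (P-glycoprotein), ABCC1 (MRP1) and ABCG2 (BCRP) are the members best known for pumping anticancer drugs out of cells. Doxorubicin and vincristine are both substrates of ABCB1 and ABCC1. ABCC2, ABCC3 and ABCC10 export drugs and their glutathione or glucuronide conjugates, and ABCC4 and ABCC5 export nucleotides and nucleotide analogues. ABCB4, the closest relative of ABCB1, moves phosphatidylcholine into bile, and ABCA3 loads lipid into intracellular lamellar bodies.

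ABCG2 and ABCB1 are shown by their promoters: ABCG2 differed most between the diseases, and ABCB1, like ABCC2, was above background in no line. Promoter windows on GRCh38.p14 were available here for 7 of the 10 members, with 5 start sites for ABCG2 and 2 for ABCB1. The 250 bases before 1 start of each are printed 5′ to 3′ on the gene's strand, which is the minus strand for both, at chr4:88158910-88159159 and chr7:87600885-87601134. Capitals mark a CCAAT box (CCAAT), a GC box (GGGCGG) or the core of a hypoxia response element (ACGTG), each searched on both strands.
ABCG2: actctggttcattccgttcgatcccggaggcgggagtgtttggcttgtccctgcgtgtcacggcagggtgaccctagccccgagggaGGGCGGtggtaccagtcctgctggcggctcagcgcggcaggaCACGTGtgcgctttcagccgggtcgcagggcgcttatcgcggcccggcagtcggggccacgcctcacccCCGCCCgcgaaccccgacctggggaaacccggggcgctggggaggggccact
ABCB1: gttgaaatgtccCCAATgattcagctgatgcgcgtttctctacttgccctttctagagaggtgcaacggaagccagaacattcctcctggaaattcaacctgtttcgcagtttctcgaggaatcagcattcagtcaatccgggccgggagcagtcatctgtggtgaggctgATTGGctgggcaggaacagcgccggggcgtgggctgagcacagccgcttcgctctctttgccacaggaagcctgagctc
The ABCG2 window held 27 CpG dinucleotides and 71.2% G and C, and the ABCB1 window held 12 and 55.6%, against medians of 11 and 58.0% over 35116 windows of the same length. The ABCG2 window held 2 GC boxes, which 42.6% of all windows hold at least once, and 2 overlapping matches to the hypoxia core, 1 on each strand, which 18.5% of windows hold. The ABCB1 window held 2 CCAAT boxes, 1 on each strand, and 32.0% of windows hold this motif. These matches describe the letters of the windows, and binding was not measured. The other windows of ABCG2 held between 2 and 32 CpG and the other window of ABCB1 held 1. The contrast between the genes thus depends on the start shown.

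The number of transporters with expression above background ranged from 5 to 7 of 10 in a line. Background was set in each array as the 95th percentile of 215 probe-sets for olfactory and taste receptors and other genes that B cells do not use. This threshold lay between 6.11 and 6.58 on the log2 scale of the deposited values, and 38.5% of all probe-sets exceeded it in an average line. The arrays had medians between 5.65 and 5.72. Markers of the disease were read on any of a gene's probe-sets. All 4 B-cell markers exceeded background in the 14 DLBCL lines, and in MM this held for MS4A1 (CD20) in 0 lines, PAX5 in 1, CD79A in 6 and CD22 in 12. The count for CD22 depends on the probe-set. On a CD22 probe-set that ran up to 11.30 in DLBCL, the MM lines lay between 4.36 and 4.99, all below background. All 5 plasma cell markers exceeded it in the 12 MM lines, and in DLBCL this held for SDC1 (CD138) in 4 lines, IRF4 in 11, XBP1 in 12, TNFRSF17 in 13 and PRDM1 in 14. In limma all 4 B-cell markers were lower and all 5 plasma cell markers higher in MM on at least 1 probe-set. The 6 T-cell and NK markers each exceeded it in at most 1 line of a disease and the 4 myeloid markers in at most 2. Of 5 stromal and endothelial markers, COL1A1 and PECAM1 exceeded it in 11 to 14 lines of each disease and DCN in 4 DLBCL lines, reaching 12.05, and in 0 MM lines. The full counts of COL1A1 and PRDM1 do not hold on each probe-set either. A COL1A1 probe-set ran from 2.90 to 8.73 in DLBCL and from 2.99 to 6.37 in MM, and a PRDM1 probe-set fell to 4.01 in DLBCL. The part of the stromal and endothelial markers in the results was not tested. The level of a probe-set is not comparable with that of another probe-set, so the levels below are compared between lines. The call of background is an exception, since it sets a probe-set against the 215 others. A value below background therefore does not show that a transcript is absent.

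ABCB1 was not above background in any of the 26 lines. Its probe-set 209993_at had a lowest, median and highest log2 expression of 3.52, 3.72 and 4.78 in the DLBCL lines and of 3.51, 3.82 and 4.86 in the MM lines. The highest values belonged to NU-DHL-1 and MOLP-8, and both lay more than 1 log2 unit below their thresholds of 6.36 and 6.40. The other probe-set, 243951_at, lay between 2.96 and 3.75. The correlation between both over the 26 lines was 0.03, so lines with a higher value on one were not those with a higher value on the other. ABCC2 (206155_at) was likewise below background in every line, with values from 4.66 in U2932 to 5.51 in KMM-1.

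ABCB4 exceeded background in 4 lines, all of them DLBCL. On 207819_s_at NU-DHL-1 had 7.59, OCI-Ly19 7.31, RIVA 7.16 and NU-DUL-1 7.14, and the next lines were OCI-Ly3 with 6.23 and DB with 6.04. The other 8 DLBCL lines lay between 4.36 and 5.40. The MM lines lay between 3.98 and 4.89, with a median of 4.54. The second ABCB4 probe-set, 1570505_at, stayed below background in all lines and still ordered them alike, with r = 0.95 over the 26 lines and the same 4 lines at the top (5.00 to 5.80).

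ABCC1 was above background in all 26 lines on both of its probe-sets. On 202804_at the DLBCL lines lay between 8.98 (NU-DHL-1) and 10.4 (DB), with a median of 9.42. The MM lines lay between 7.94 (KMM-1) and 10.5 (KMS-11), with a median of 8.96. The spread was wider in MM, with an SD of 0.79 against 0.41, and the difference in spread was not tested. The probe-sets correlated with r = 0.93, and both placed KMS-11, KMS-12-PE, DB and MC-116 at the top.

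ABCC3, ABCC5 and ABCC10 each exceeded background in all 26 lines on at least 1 probe-set, but their probe-sets disagreed to different degrees. For ABCC3, an exporter of conjugates best known from the liver, 3 probe-sets exceeded background in all lines, 239217_x_at in 3 lines and 208161_s_at in none. None of these 5 probe-sets varied much, with SDs over the 26 lines between 0.12 and 0.19, and at most 24.3% of all probe-sets had a lower SD than any of them. Their pairwise correlations lay between −0.24 and 0.43. At the 99th percentile of the background genes no line exceeded it for ABCC3, and whether these flat values are ABCC3 transcript cannot be told from the arrays.

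For ABCC5, 209380_s_at exceeded background in all lines, 226363_at in 22 and 1558460_at in 1. The widest of these was 226363_at, which ran from 5.38 in NU-DUL-1 to 8.65 in SU-DHL-4, and FARAGE, HBL-1, NU-DUL-1 and MOLP-8 fell below background. Correlations between the 3 probe-sets were 0.22, 0.50 and 0.64, so the order of lines depended on the probe-set. For ABCC10 both probe-sets ordered the lines alike, with r = 0.87. NCI-H929 had the highest values (8.91 on 213485_s_at and 8.62 on 215873_x_at), while DB, OCI-Ly19 and KMM-1 were below background on the first at 6.09, 6.13 and 6.13.

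ABCC4 varied more than any other member except ABCG2, and 96.2% of all probe-sets had a lower SD than its probe-set 203196_at. This probe-set exceeded background in 10 DLBCL and 10 MM lines. In the DLBCL lines SU-DHL-5 (4.33) and RIVA (4.39) were lowest, NU-DUL-1 (6.20) and OCI-Ly3 (6.28) lay just below background, and HBL-1 (9.41) and DB (9.44) were highest. In the MM lines U-266 (4.15) and KMS-12-BM (4.50) stood below the other 10, which lay between 6.74 in LP-1 and 9.06 in AMO-1. The probe-sets 1554918_a_at and 1555039_a_at ordered the lines the same way, with r between 0.93 and 0.98 among the 3. The fourth, 243928_s_at, lay between 3.42 and 4.20 in all lines and correlated with them at 0.20 to 0.28.

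**Figure D1:**
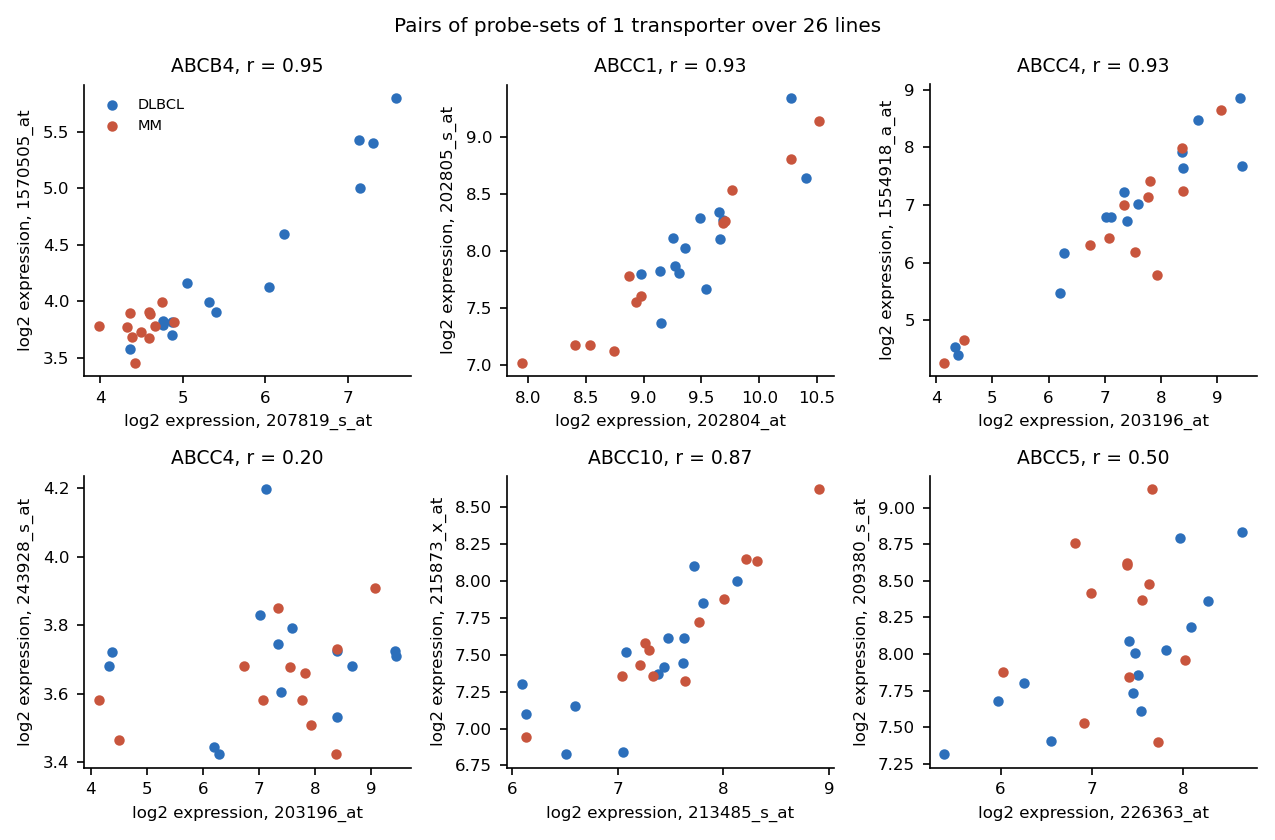
Log2 expression of pairs of probe-sets of the same transporter, 1 point per cell line, with DLBCL lines in blue and MM lines in red. The pairs of ABCB4, ABCC1 and ABCC10 and the first pair of ABCC4 follow a line (r from 0.87 to 0.95), the second pair of ABCC4 does not (r = 0.20), and ABCC5 lies between (r = 0.50).

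ABCG2 (209735_at) exceeded background in 7 of 12 MM lines and in none of 14 DLBCL lines. RPMI-8226 had 10.4, KMS-12-PE 9.54, KMS-11 8.97, LP-1 8.37, U-266 8.19, MM1S 7.99 and AMO-1 7.73. The 5 other MM lines were OPM-2 with 6.10, NCI-H929 with 5.87, KMS-12-BM with 5.79, KMM-1 with 4.85 and MOLP-8 with 4.67. The DLBCL lines lay between 4.09 in DB and 5.77 in OCI-Ly3, with a median of 4.63. Of the MM lines, KMM-1 and MOLP-8 thus lay within the DLBCL range, KMS-12-BM and NCI-H929 just above its upper end, and the 7 lines over background clear of it.

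ABCA3 (204343_at) exceeded background in all 12 MM lines and in 13 DLBCL lines, MC-116 being the exception at 6.25. The DLBCL lines lay between 6.25 and 8.01 with a median of 6.88, and 13 of the 14 lay at or below 7.28. The MM lines lay between 6.98 in AMO-1 and 8.19 in MOLP-8 with a median of 7.64, so the ranges of the diseases overlapped.

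**Figure D2:**
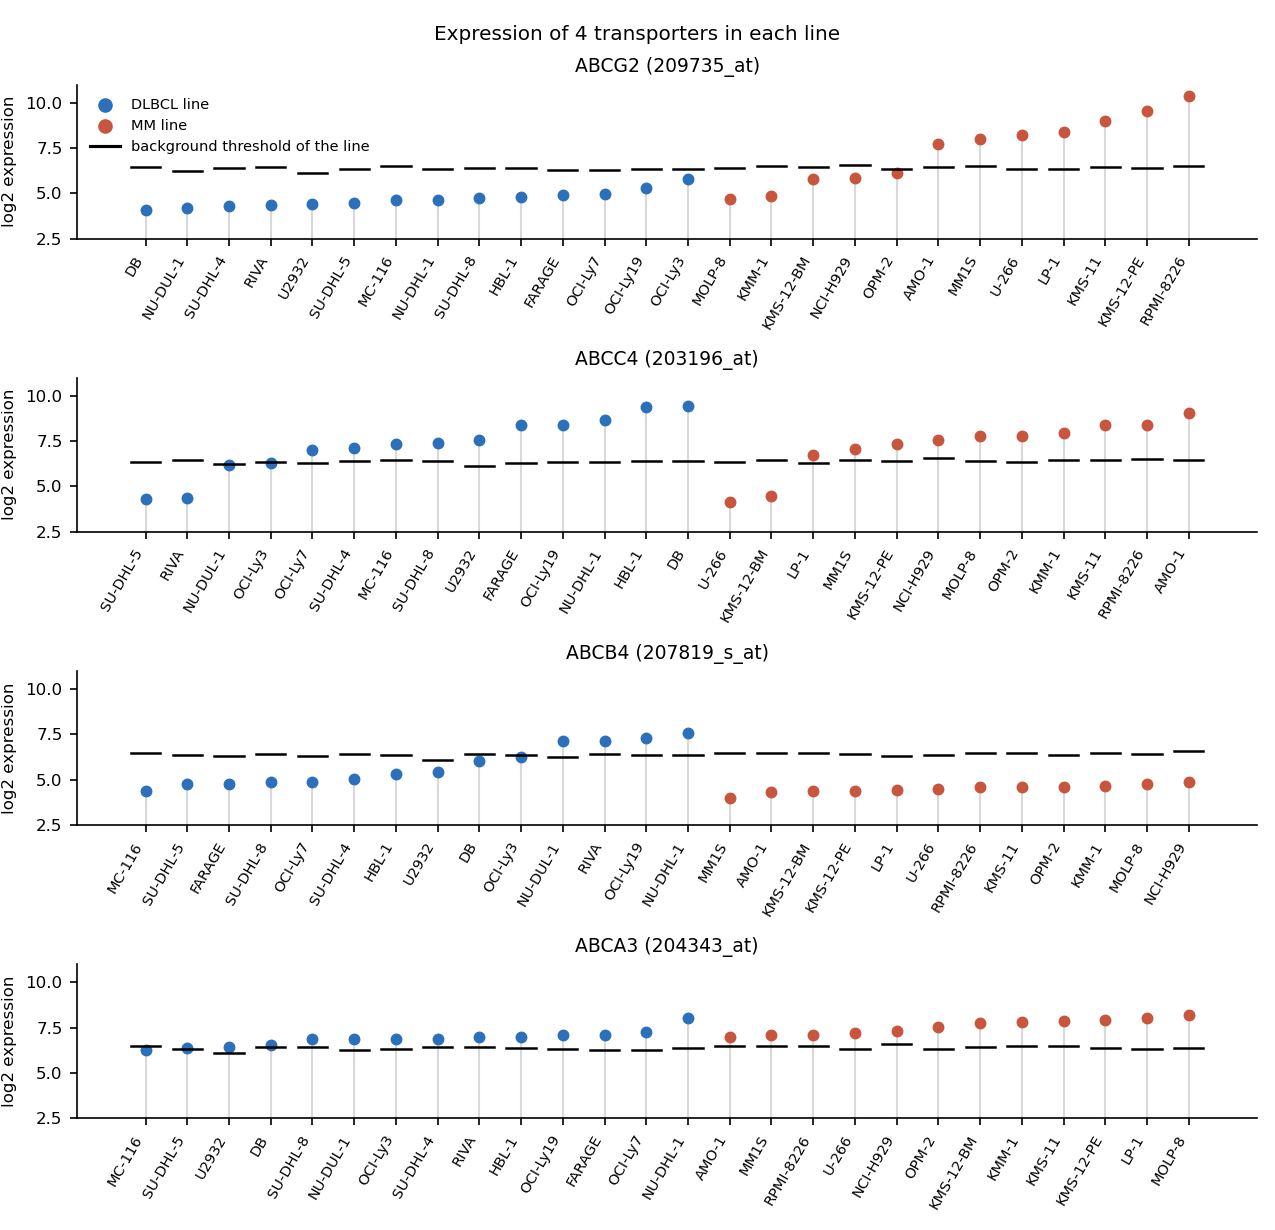
Log2 expression of ABCG2, ABCC4, ABCB4 and ABCA3 in each line, ordered within the DLBCL lines (blue) and the MM lines (red), with a black bar at the background threshold of the line. ABCG2 stands above its bar in 7 MM lines and no DLBCL line, ABCB4 in 4 DLBCL lines and no MM line, ABCC4 in 10 lines of each disease and ABCA3 in all lines except MC-116.

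The first comparison asked whether the transporters differed between the diseases. ABCG2 and ABCA3 were higher in the MM lines and ABCB4 was lower, and no other member passed the test. In limma, which was fitted to all 54613 probe-sets with Benjamini-Hochberg adjustment, 3 of the 23 member probe-sets had an adjusted p under 0.05, against 6285 of all probe-sets (11.5%). Of the 3, 2 were higher in MM, as were 5.64% of all probe-sets, and 1 was lower, as were 5.87%. The median difference was −0.03 over the 23 and −0.02 over all probe-sets. The share of members called was thus close to that of the array.

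For ABCG2 the means were 4.68 ± 0.45 over the DLBCL panel (SD, n = 14) and 7.37 ± 1.87 over the MM panel (SD, n = 12), a difference of 2.69 (standard error 0.50, 95% confidence interval 1.66 to 3.71, limma adjusted p = 0.000685). Since no DLBCL line exceeded background, the MM mean was at least 2.03-fold higher when each DLBCL line was set to its background threshold. ABCA3 had means of 7.56 ± 0.42 (SD) in MM and 6.89 ± 0.44 (SD) in DLBCL, a difference of 0.67 (standard error 0.17, limma adjusted p = 0.00806), or 1.59-fold. ABCB4 on 207819_s_at had means of 4.51 ± 0.24 (SD) in MM and 5.78 ± 1.12 (SD) in DLBCL, a difference of −1.27 (standard error 0.32, limma adjusted p = 0.00931). Both means of ABCB4 lay below the mean threshold of 6.39, so no fold is given. The second ABCB4 probe-set differed by −0.59 without passing the test (standard error 0.21, limma adjusted p = 0.0723), and it passed when MC-116 was left out (limma adjusted p = 0.0469).

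Culture medium differed between the lines and was unevenly spread over the diseases. With the medium as a block, a fit chosen after the data were seen, ABCG2 still differed (2.86, standard error 0.60, limma adjusted p = 0.00463), while ABCA3 (0.58, adjusted p = 0.0762) and ABCB4 (−1.27, adjusted p = 0.0507) no longer passed. Among the lines in RPMI with 10% serum the mean of ABCG2 was 7.75 ± 1.99 (SD, n = 6) for MM and 4.71 ± 0.34 (SD, n = 8) for DLBCL (limma adjusted p = 0.0209). In the same medium the difference was 0.34 for ABCA3 (limma adjusted p = 0.426) and −1.45 for ABCB4 (limma adjusted p = 0.111). In RPMI with 20% serum, where only 2 DLBCL lines grew beside 5 MM lines, the MM and DLBCL means were 6.72 and 4.28 for ABCG2, 7.63 and 6.47 for ABCA3, and 4.54 and 5.40 for ABCB4.

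For the remaining members the differences were small beside the spread between lines. ABCC1 was lower in MM by 0.31 (standard error 0.23) and 0.24 (standard error 0.23) on its 2 probe-sets, with limma adjusted p values of 0.426 and 0.558. The confidence intervals of both still allowed a fall of about 0.7 to 0.8 (lower bounds −0.80 and −0.71) and a rise of about 0.2 (upper bounds 0.17 and 0.24). ABCC10 was higher by 0.41 (standard error 0.26, limma adjusted p = 0.339) on 213485_s_at and ABCC5 by 0.27 (standard error 0.19, limma adjusted p = 0.387) on 209380_s_at. ABCC4 differed by −0.06 on 203196_at, with an interval from −1.27 to 1.15 that its wide spread among lines sets. ABCB1, ABCC2 and the 5 probe-sets of ABCC3 differed by at most 0.10 in either direction.

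**Figure D3:**
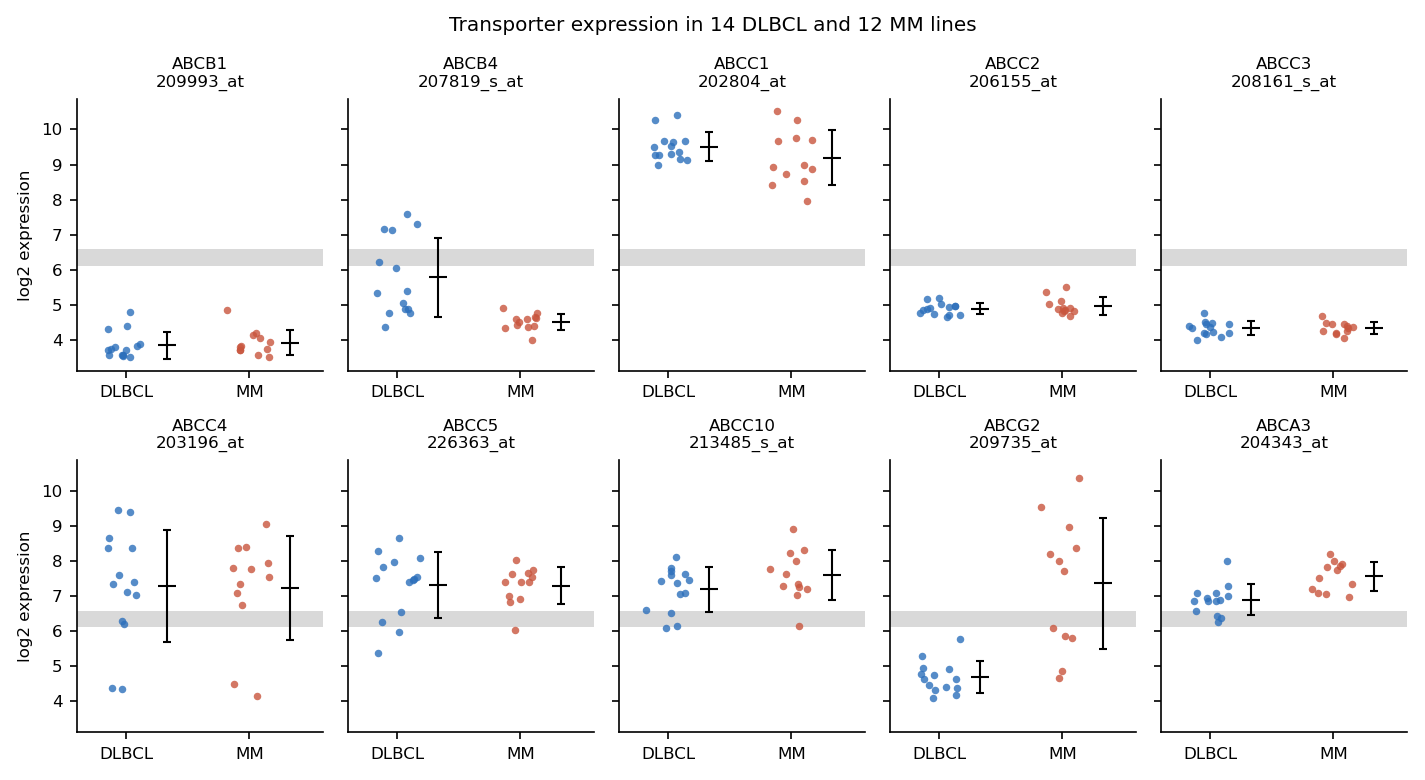
Log2 expression of the 10 transporters in 14 DLBCL lines (blue) and 12 MM lines (red), 1 point per line, for the probe-set of each gene with the largest SD over the 26 lines. Black bars give the mean and SD and the grey band spans the background thresholds of the 26 arrays; ABCG2 and ABCA3 lie higher in MM and ABCB4 lower, while ABCB1, ABCC2 and this probe-set of ABCC3 lie below the band.

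The other genes of the ABC family and the genes around these pumps gave a context for the disease difference. Of 34 other ABC genes with a probe-set of their own, 5 passed the test on 1 probe-set each, or 5 of 80 probe-sets against 11.5% of the array. ABCB9, a lysosomal peptide transporter, was higher in MM by 1.71 (standard error 0.51, limma adjusted p = 0.0274), and ABCB10, which sits in the mitochondrial inner membrane, was higher by 0.86. ABCD3, a peroxisomal fatty acid transporter, was lower in MM by 0.88, and ABCA6 and ABCA9 of the A subfamily were lower by 1.34 and 0.26 at levels below background. In ABCB9 the DLBCL mean of 5.79 lay below background too. Of 17 genes of glutathione conjugation, which makes the conjugates that ABCC proteins export, 1 passed, GCLC, the catalytic subunit of glutamate-cysteine ligase, with −0.35 and below background, or 1 of 35 probe-sets.

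Of 9 regulators of transporter genes, 3 were higher in MM and 1 was lower, on 11 of 24 probe-sets, against 11.5% of the array. FOXO3, a forkhead transcription factor, was higher by 2.38 (standard error 0.31) on 1 probe-set and passed on 4. KEAP1, the adaptor that marks NRF2 for degradation, was higher by 0.58, and ARNT, the partner of the hypoxia factor HIF1A, was higher by 1.08 on the probe-set of smallest p. HIF1A itself was lower in MM by 1.14 (standard error 0.24, limma adjusted p = 0.0023). Of the 7 genes that lie beside ABCB1 on chromosome 7, ADAM22 was higher in MM on 5 of 8 probe-sets, by 0.88 to 1.22, and TMEM243 was lower by 1.04, which gave 6 of 20 probe-sets. Over the 26 lines centred on the mean of their disease, the neighbours other than ABCB4 correlated with ABCB1 between −0.27 and 0.26, and ABCB4 itself at 0.39 and 0.48.

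Genes whose pattern was most like that of a variable transporter were found from the correlation over the 26 lines after the mean of each disease was removed. For ABCG2 they were ADGRL3 (r = 0.75), CDKN1C (0.72) and NUP153 (0.71). For ABCC4 they were SIN3B (0.73), NDUFAF2 (0.70) and B9D1 (0.66). For ABCB4 they were UXS1 (0.75), FNBP1L (0.74) and GPSM1 (0.71). These are the highest of all named probe-sets and describe the panel only. Among the transporters themselves the strongest such correlation was 0.50, between ABCB1 and ABCA3, of which ABCB1 lay below background throughout.

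KMS-12-PE and its sister line KMS-12-BM, which derive from the same patient, differed in ABCG2 and ABCC4. ABCG2 was 5.79 in KMS-12-BM and 9.54 in KMS-12-PE, a gap of 3.74 on the log2 scale that exceeded the gap of 99.4% of all probe-sets. KMS-12-BM lay below background, and ABCG2 was at least 8.46-fold higher in KMS-12-PE than the threshold of KMS-12-BM. ABCC4 on 203196_at was 4.50 and 7.34, a gap of 2.84 that exceeded the gap of 98.9% of probe-sets, or at least 1.85-fold by the same bound. ABCC5 on 226363_at ran the other way, with 8.02 and 6.82, although its probe-set 209380_s_at was lower in KMS-12-BM (7.96 against 8.76). In all, 5 of the 23 member probe-sets differed more than 2-fold between these lines, 3 of them for ABCC4, against 8.8% of all probe-sets. With 1 array per line these gaps have no replicate check.

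The second comparison asked whether resistant and sensitive lines of a disease differed in the transporters. Between them lay 4 and 4 lines for each drug and disease, except doxorubicin in DLBCL with 5 and 5. AUC0 ran from 165 to 346 for cyclophosphamide, from 167 to 327 for doxorubicin and from 54 to 131 for vincristine in the DLBCL lines, and from 242 to 395, from 227 to 356 and from 90 to 187 in the MM lines. Mafosfamide, which needs no activation by the liver, stood in for cyclophosphamide in the culture. The comparisons share lines within a disease, and their differences are given side by side without a test between them.

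No member passed the test in any of the 6 class comparisons. In limma with Benjamini-Hochberg adjustment, 0 of 138 tests of the members were called. At an unadjusted p under 0.05 there were 5 (3.62%), against 5.0% over all probe-sets. These were 1 each in DLBCL and MM for cyclophosphamide (4.29% and 4.13% of all probe-sets), 1 and 0 for doxorubicin (7.58% and 7.33%), and 1 each for vincristine (3.61% and 3.07%). The smallest adjusted p of a member was 0.638. Few probe-sets of the array were called either: for cyclophosphamide 0 in DLBCL and 0 in MM, for doxorubicin 2 (0.00366%) and 1 (0.00183%), and for vincristine 2 (0.00366%) and 0. A two-sided exact permutation test of each member gave 3 of 138 p values under 0.05, all in DLBCL, and the smallest p it can give is 0.0286 for 4 against 4 lines and 0.00794 for 5 against 5.

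ABCB1, which lay below background in every line, was lower in the lines resistant to doxorubicin by 0.39 in DLBCL (95% confidence interval −0.89 to 0.11) and by 0.32 in MM (−0.93 to 0.28). It was higher in the lines resistant to vincristine by 0.26 in DLBCL (−0.14 to 0.66) and by 0.33 in MM (−0.27 to 0.93). None of these differences passed, with exact permutation p values between 0.167 and 0.343. Leaving out 1 line gave −0.51 to −0.20 and −0.45 to −0.10 for doxorubicin in DLBCL and MM, with the smallest sizes without NU-DHL-1 and MOLP-8. It gave 0.10 to 0.33 and 0.08 to 0.51 for vincristine, with the smallest sizes without SU-DHL-8 and MOLP-8.

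ABCC1 passed in no comparison, and its smallest p values were those of 202805_s_at in DLBCL. On 202805_s_at the lines resistant to cyclophosphamide had 8.64 (DB), 8.29 (RIVA), 8.12 (FARAGE) and 7.82 (U2932), and the sensitive lines had 7.87 (OCI-Ly19), 7.80 (NU-DHL-1), 7.67 (NU-DUL-1) and 7.37 (SU-DHL-5). Only U2932 of the resistant lines lay within the range of the sensitive ones. The difference was 0.54 (standard error 0.20, exact permutation p = 0.0571, limma adjusted p = 0.997). For doxorubicin the same probe-set differed by 0.43 in DLBCL (standard error 0.18, exact permutation p = 0.0556, limma adjusted p = 0.638). The other probe-set, 202804_at, gave 0.34 and 0.42 for these comparisons with exact permutation p values of 0.429 and 0.0635.

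In the MM lines ABCC1 on 202804_at was higher in the lines resistant to cyclophosphamide by 0.72 (95% confidence interval −0.02 to 1.45, exact permutation p = 0.143). It was higher in those resistant to doxorubicin by 0.59 (−0.71 to 1.90, exact permutation p = 0.40). KMM-1, which is resistant to doxorubicin, had the lowest value of the 12 MM lines (7.94), while the other resistant lines KMS-11, KMS-12-PE and KMS-12-BM had 10.5, 10.3 and 9.70. Leaving out 1 line moved the doxorubicin difference between 0.29 without KMS-11 and 1.15 without KMM-1, and it was 0.37 without KMS-12-PE, which comes from the same patient as KMS-12-BM. For vincristine ABCC1 on 202804_at differed by 0.22 in DLBCL and 0.07 in MM, with intervals from −0.52 to 0.97 and from −0.78 to 0.91. On 202805_s_at the MM difference was 0.40 for cyclophosphamide (−0.31 to 1.11, exact permutation p = 0.343). For doxorubicin it was 0.60 on that probe-set (−0.47 to 1.68, exact permutation p = 0.314).

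ABCG2 was read mainly in the MM lines, since it lay below background in every DLBCL line. For cyclophosphamide the resistant MM lines had 10.4 (RPMI-8226), 8.19 (U-266), 7.73 (AMO-1) and 5.79 (KMS-12-BM), and the sensitive lines had 7.99 (MM1S), 6.10 (OPM-2), 4.85 (KMM-1) and 4.67 (MOLP-8). The groups overlapped, and the difference of 2.12 (95% confidence interval −0.40 to 4.63) did not pass (exact permutation p = 0.171, limma adjusted p = 0.999). For vincristine the order was turned, with 8.37 (LP-1), 5.87 (NCI-H929), 4.85 (KMM-1) and 4.67 (MOLP-8) in the resistant lines and 10.4 (RPMI-8226), 8.19 (U-266), 7.99 (MM1S) and 6.10 (OPM-2) in the sensitive lines. The difference was −2.22 (−4.74 to 0.30, exact permutation p = 0.143). For doxorubicin it was 0.73 (−2.16 to 3.61, exact permutation p = 0.60) and was −0.02 without KMS-12-PE. These intervals span several log2 units, so neither a difference nor its absence was detectable with 4 and 4 lines.

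Classes without overlap were rare in the members as in the array. They were seen for 2 of 138 tests, 1 in DLBCL for cyclophosphamide, where 2.60% of all probe-sets did not overlap, and 1 in DLBCL for vincristine (2.37%). There were 0 in the other comparisons, against 2.67% of all probe-sets for cyclophosphamide in MM, 1.35% and 4.46% for doxorubicin in DLBCL and MM, and 1.87% for vincristine in MM. For ABCC5 on 226363_at, 7 of the 8 lines compared lay above background, and FARAGE lay just below its threshold. The DLBCL lines resistant to vincristine had 8.28 (SU-DHL-8), 8.09 (DB), 7.82 (OCI-Ly7) and 7.54 (RIVA), and the sensitive lines had 7.50 (SU-DHL-5), 7.45 (MC-116), 7.41 (OCI-Ly19) and 6.26 (FARAGE). All resistant lines were higher, by 0.78 on average (standard error 0.31, exact permutation p = 0.0286, the smallest it can give, limma adjusted p = 0.990). RIVA and SU-DHL-5 lay 0.04 apart, and FARAGE stood below the other 3 sensitive lines. Without FARAGE the difference was 0.48. In the MM lines the same difference was −0.42 (standard error 0.35), and the test of a difference between the diseases did not pass (limma adjusted p = 1.0). The other ABCC5 probe-sets differed between the vincristine classes of DLBCL by 0.18 on 209380_s_at (exact permutation p = 0.371) and −0.17 on 1558460_at (exact permutation p = 0.486). The dim ABCC4 probe-set 243928_s_at also separated the DLBCL classes of cyclophosphamide, by 0.15, and its values of 3.45 to 3.79 all lay below background. It was also higher in the DLBCL lines resistant to doxorubicin, by 0.21 with overlapping groups (exact permutation p = 0.0238).

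Other members gave single differences that did not pass. ABCA3 was higher in the MM lines resistant to vincristine, with 8.19 (MOLP-8), 8.01 (LP-1), 7.83 (KMM-1) and 7.34 (NCI-H929) against 7.52 (OPM-2), 7.20 (U-266), 7.09 (RPMI-8226) and 7.07 (MM1S), a difference of 0.62 (standard error 0.20, exact permutation p = 0.0571, limma adjusted p = 1.0). ABCC10 on 213485_s_at was lower in the MM lines resistant to doxorubicin by 0.96 (standard error 0.43, exact permutation p = 0.0857, limma adjusted p = 0.696). On 215873_x_at it was lower by 0.47 (standard error 0.31, exact permutation p = 0.229). ABCC5 on 1558460_at was higher by 0.44 in the MM lines resistant to cyclophosphamide (standard error 0.16, exact permutation p = 0.0571, limma adjusted p = 0.999), at levels below background. ABCC4 on 203196_at differed by 0.55 in the DLBCL lines and −1.12 in the MM lines resistant to cyclophosphamide, with intervals from −2.49 to 3.60 and from −3.81 to 1.56.

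**Figure D4:**
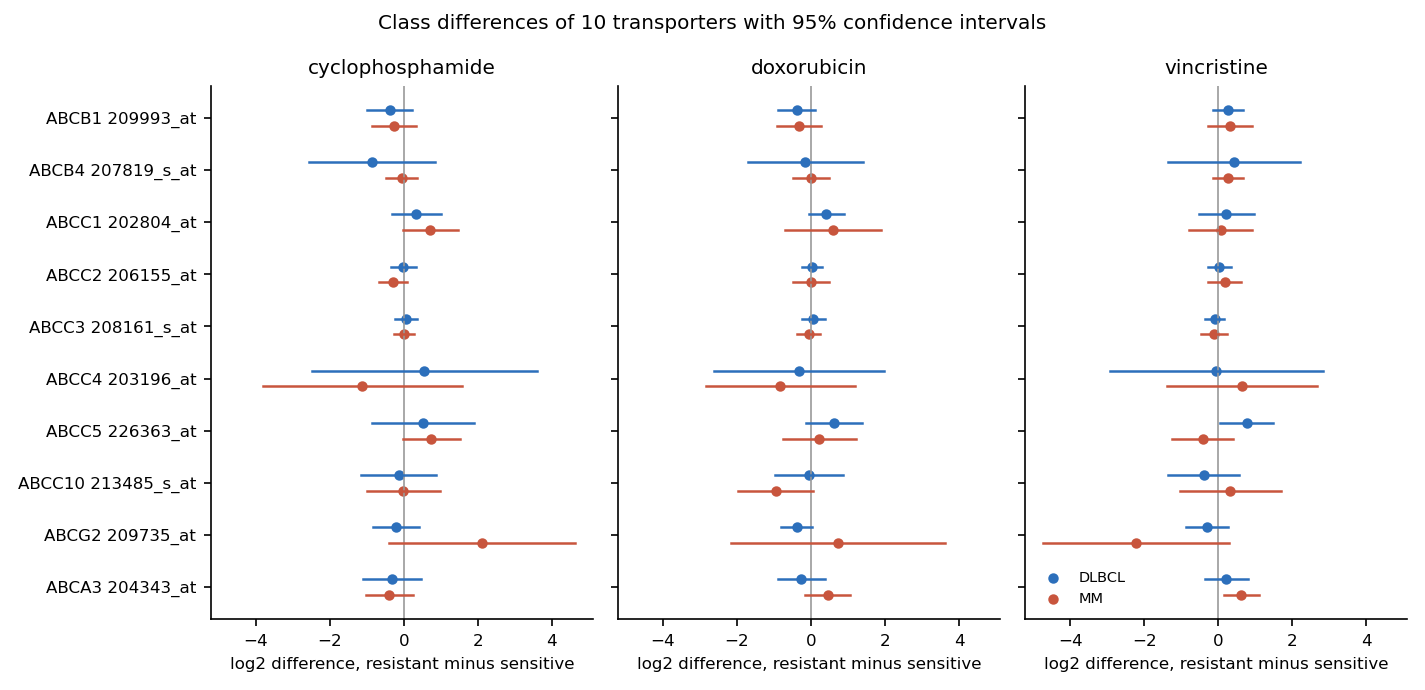
Difference in log2 expression between resistant and sensitive lines for the probe-set of each transporter with the largest SD, with 95% confidence intervals from limma, for 3 drugs in the DLBCL lines (blue) and the MM lines (red). All intervals except those of ABCC5 in DLBCL and ABCA3 in MM for vincristine include 0, those of ABCG2 in MM and of ABCC4 are the widest, and no difference passed after adjustment.

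The third comparison used AUC0 as a number, over 12 DLBCL lines for cyclophosphamide and vincristine, 14 for doxorubicin and 12 MM lines for each drug. Of the 138 correlations of a member probe-set with AUC0, 3 (2.17%) had a permutation p under 0.05. In limma, 0 of 138 slopes passed after adjustment, as did 0 of all probe-sets except 1 (0.00183%) for doxorubicin in MM. At an unadjusted p under 0.05 there were 3, as were 4.5% of slopes over all probe-sets. These were 1 for cyclophosphamide in DLBCL, 1 for doxorubicin in MM and 1 for vincristine in MM. The shares of all probe-sets in DLBCL and MM were 4.95% and 3.44% for cyclophosphamide, 5.50% and 4.17% for doxorubicin, and 4.30% and 4.66% for vincristine. The smallest adjusted p of a slope of a member was 0.883.

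ABCC1 on 202805_s_at correlated with AUC0 of cyclophosphamide in the DLBCL lines, with Pearson's r = 0.64 (permutation p = 0.0227) and Spearman's rho = 0.61 (permutation p = 0.0381). The slope was 0.38 per 100 units of AUC0 (standard error 0.14), and its limma adjusted p was 0.983. Without the 2 lines farthest from the median AUC0, NU-DHL-1 and SU-DHL-5, r was 0.44. The other ABCC1 probe-set gave r = 0.48 (permutation p = 0.106), and r was 0.42 and 0.46 on the 2 probe-sets for doxorubicin in DLBCL.

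ABCA3 correlated with AUC0 of vincristine in the MM lines, with r = 0.60 (permutation p = 0.0348) and rho = 0.68 (permutation p = 0.0172), with a slope of 0.89 per 100 units (standard error 0.36, limma adjusted p = 0.982). Without LP-1 and MOLP-8 r was 0.38. LP-1 lay farthest from the median AUC0, while MOLP-8 tied with NCI-H929, which was kept, at an AUC0 of 149. The value without NCI-H929 in place of MOLP-8 was not computed. ABCC3 on 230682_x_at correlated with AUC0 of doxorubicin in the MM lines, with r = 0.70 (permutation p = 0.0122) and rho = 0.73 (permutation p = 0.00977), over values that span 0.47 log2 units. Without MM1S and MOLP-8 r was 0.34, and its slope had a limma adjusted p of 0.999. The other ABCC3 probe-sets did not show this relation, with r of −0.08 (208161_s_at), 0.19 (209641_s_at), 0.13 (239217_x_at) and 0.30 (242553_at). Leaving out 1 line at a time gave slopes of 0.28 to 0.49 for ABCC1 on 202805_s_at and 0.75 to 1.08 for ABCA3. For ABCC3 on 230682_x_at it gave 0.15 to 0.25, and none passed the adjusted test. Over the 138 relations r was smaller in size without the 2 farthest lines in 59 and larger in 79. In the MM lines r went from 0.52 to 0.81 for ABCC5 on 1558460_at with cyclophosphamide, from −0.49 to −0.81 for ABCA3 with cyclophosphamide, and from 0.40 to 0.77 for ABCA3 with doxorubicin. These are examples picked from the 138 relations, over 10 lines each and without a p value. The ABCC5 probe-set 1558460_at lay below background in all MM lines. With cyclophosphamide r stayed at 0.13 on 209380_s_at of ABCC5 and went from 0.43 to 0.75 on 226363_at.

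ABCG2 in the MM lines had r = 0.37 (permutation p = 0.244, and 0.57 without MM1S and AMO-1) with AUC0 of cyclophosphamide, 0.11 (permutation p = 0.744) with doxorubicin and −0.18 (permutation p = 0.574) with vincristine. KMS-12-BM and its sister KMS-12-PE, which differed in ABCG2 and ABCC4, had AUC0 values of 328 and 309 for cyclophosphamide, 331 and 340 for doxorubicin and 112 and 121 for vincristine. ABCB1 on 209993_at had r = −0.37 in DLBCL and −0.45 in MM with doxorubicin, and 0.45 and 0.18 with vincristine, none with a permutation p under 0.05.

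**Figure D5:**
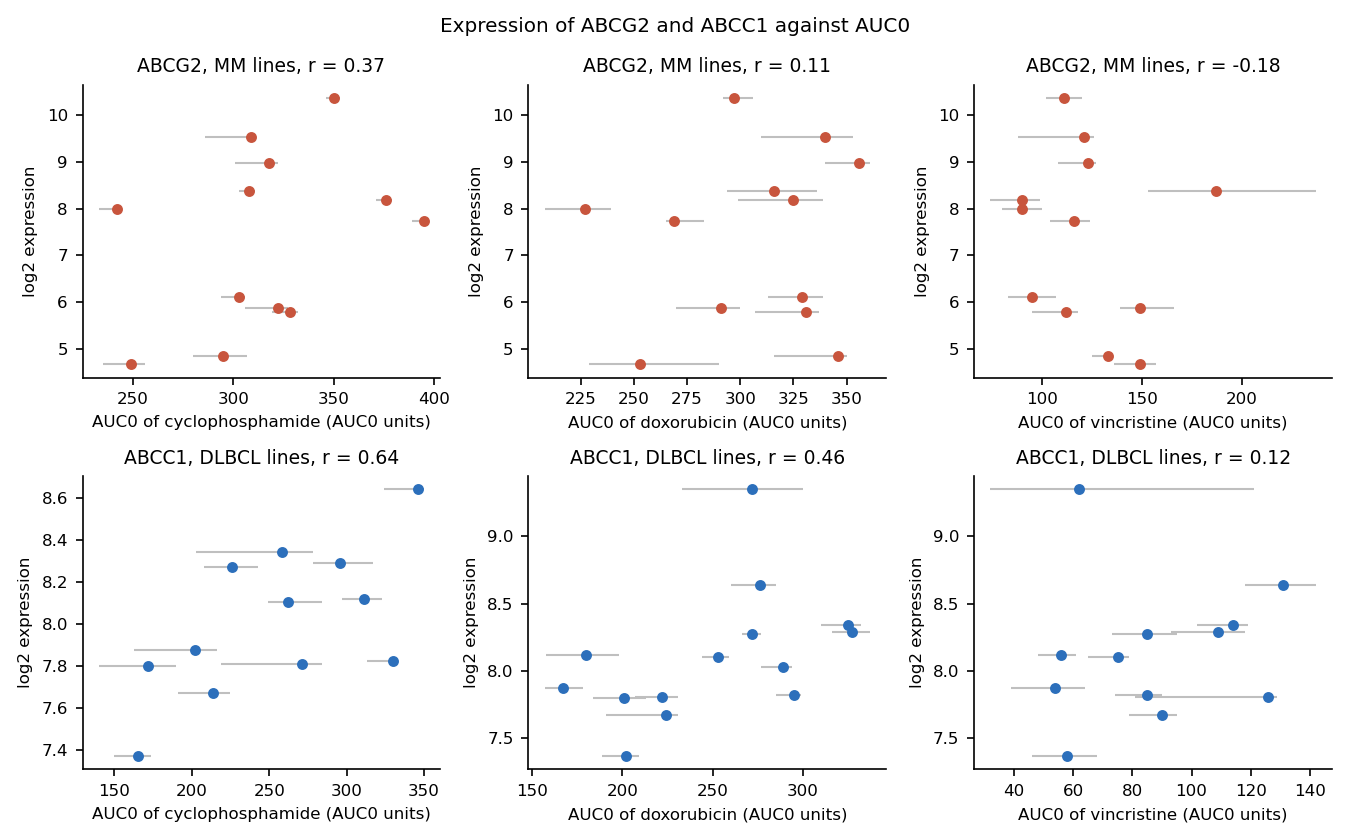
Log2 expression of ABCG2 in the MM lines (top) and of ABCC1 on 202805_s_at in the DLBCL lines (bottom) against AUC0 of 3 drugs, 1 point per line with the confidence interval of AUC0 from the labels as a grey bar. ABCG2 has r of 0.37, 0.11 and −0.18 with the 3 drugs, and ABCC1 lies at 7.37 in the DLBCL line with the lowest AUC0 of cyclophosphamide and at 8.64 in the line with the highest (r = 0.64).

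Whether a relation differed between the diseases was tested with an interaction of disease and class and of disease and AUC0. In limma 0 of 69 class interactions and 0 of 69 slope interactions of the members passed after adjustment, with 1 of each (1.45%) at an unadjusted p under 0.05, against 5.65% and 4.57% of the tests of all probe-sets. Over all probe-sets the class interaction was called for 14 probe-sets with cyclophosphamide (0.0256%), 15 with doxorubicin (0.0275%) and 0 with vincristine, and the slope interaction for 0 with each drug. None of the 34 other ABC genes, the glutathione genes or the regulators passed in a class or slope comparison within a disease.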

How the data were processed

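Expression was profiled in 26 untreated cell lines on Affymetrix HG-U133 Plus 2.0 arrays, 1 per line. The authors deposited log2 values that RMA (package affy, R 3.0.1 per the submitters' processing notes) had given, a procedure that subtracts background, equalises the distributions of the arrays and condenses the probes of a probe-set. The scanner files were not used, and neither batches nor which arrays were normalised together is given in the sources used here. RMA compresses differences of dim probe-sets. AUC0 values and classes came from the labels. The doxorubicin class stands under a second cyclophosphamide tag, and all classes equalled the tertiles of AUC0.

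Control probe-sets (62) were left out. Of the 54613 others, 41091 had 1 symbol, 1801 several and 11721 none. Disease, class, slope and interaction terms were estimated by limma 3.58.1 (R 4.3.3) over all of them, with Benjamini-Hochberg adjustment and a threshold of 0.05. Intermediate lines were left out of class comparisons, as in the study. Exact permutation tests and permutations with 100000 resamples were run with scipy 1.17.1, numpy 2.4.6 and pandas 2.3.3 under Python 3.11.15. Matplotlib 3.10.9 drew the figures. The precision is limited by the number of arrays. The models were checked on simulated data.

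The members and gene lists were chosen with earlier results of these data known. Named are all members, up to 4 called genes per list, and for members above background in 3 to 23 lines the 3 genes of highest correlation with them. Alternatives were 1 probe-set per gene (largest SD over the DLBCL lines), dim probe-sets left out, centred arrays, a prior variance with a trend, lines left out, 3 classes, the bounds of AUC0, other background thresholds and, chosen after seeing the data, the culture medium.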

Additional observations from a re-analysis of the deposited data

Results flagged for a closer look

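In 60 classes of 4 or 5 lines, 3 held a line that stood apart from the rest, and chance alone gives about 1 class in 20. ABCC1 on 202804_at was 10.27 in MC-116, an undifferentiated lymphoma line, while the other 3 DLBCL lines sensitive to vincristine lay between 9.15 and 9.27. ABCC5 on 226363_at was 6.26 in FARAGE, while the other 3 lines of that class lay between 7.41 and 7.50. ABCC4 on 243928_s_at was 3.79 in U2932, while the other 3 DLBCL lines resistant to cyclophosphamide lay between 3.71 and 3.72, all below background.

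The probe-set 209994_s_at, which is annotated to both ABCB4 and ABCB1 and entered no comparison, exceeded background in 4 lines, NU-DHL-1 (7.39), RIVA (6.63), OCI-Ly19 (6.53) and NU-DUL-1 (6.51). These are the lines in which ABCB4 exceeded background on 207819_s_at. Over the 26 lines the shared probe-set had r = 0.92 with 207819_s_at and 0.49 with 209993_at of ABCB1.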

How the results depend on the processing

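No paired analysis was possible because the labels give no replicate numbers and each line is a sample of its own. In the disease difference, 3 members passed under centred arrays, a prior variance with a trend, 1 probe-set per gene, without MC-116 and AMO-1 and without KMS-12-PE. Only 1 passed with dim probe-sets left out, where ABCG2 and ABCB4 were not tested, with the culture medium as a block and in RPMI with 10% serum alone (ABCG2 in both). Leaving out each line in turn gave 3 to 4. The number of called probe-sets over the array was 6285, and it was 3483 of 33297 with 1 probe-set per gene, 4296 of 21161 without dim ones and 2150 in RPMI with 10% serum. At the 99th percentile the transporters above background summed to 70 over the lines in place of 160, with ABCC1 in 26 lines, ABCC5 in 20, ABCC4 in 11, ABCC10 in 5, ABCG2 and ABCA3 in 4 each, and ABCB1, ABCB4, ABCC2 and ABCC3 in 0.

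Signs turned for several differences, and not all of these were near 0. ABCB1 on 209993_at was −0.075 and ABCC10 on 213485_s_at −0.019 in RPMI with 10% serum, and ABCC5 on 226363_at was 0.025 without KMS-12-PE. Leaving out 1 line gave disease differences of −0.014 to 0.14 and −0.0057 to 0.057 for ABCB1 (209993_at, 243951_at), −0.024 to 0.042 for ABCC3 (208161_s_at), −0.22 to 0.10 and −0.28 to 0.22 for ABCC4 (1555039_a_at, 203196_at) and −0.17 to 0.10 for ABCC5 (226363_at). It gave vincristine class differences of −0.0063 to 0.49 in DLBCL and −0.25 to 0.35 in MM for ABCC1 on 202804_at, and of −0.18 to 0.48 and −0.14 to 0.36 on 202805_s_at, with the highest DLBCL values without MC-116. It gave −0.30 to 1.58 for ABCC4 (203196_at, 0.55 with no line left out) and −0.36 to 0.013 for ABCG2 in the cyclophosphamide classes of DLBCL. For ABCG2 and doxorubicin in MM, the class difference was 0.73 with no line left out. Leaving out 1 line gave −0.023 to 1.54, the former without KMS-12-PE, and a slope of −0.50 to 1.32. The causes were not tested. No member passed in a class, slope or interaction comparison under any alternative run. Over all probe-sets the class interaction of cyclophosphamide (14) fell to between 4 and 9 under 3 alternatives and that of doxorubicin (15) was 6 with 1 probe-set per gene, 24 without MC-116 and AMO-1 and 1 without KMS-12-PE. With 4 lines a class, only large differences could have passed.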

Other observations

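The count of transporters above background was 7 in NU-DHL-1 and OCI-Ly19 of the DLBCL lines and in KMS-11, KMS-12-PE, LP-1, MM1S, RPMI-8226 and AMO-1 of the MM lines. It was 5 in OCI-Ly3, SU-DHL-5, MC-116 and KMS-12-BM and 6 in the other lines. MVP, the major vault protein, differed by 0.98 between MM and DLBCL and did not pass the test in limma.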
